A study of Homo sapiens with 12 samples.

Results

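GDF15 and 4 transcripts of the integrated stress response were followed across 12 expression arrays of WM35, an established human melanoma cell line, after exposure to ciclopirox or crizotinib. The members are 5 probes of the 47230 on the array, for 5 genes of the 18811 that the platform annotation names: ILMN_2188862 for GDF15, ILMN_1676984 for DDIT3, ILMN_2374865 for ATF3, ILMN_1787815 for TRIB3 and ILMN_1796417 for ASNS. They were chosen by their level in these same data, with the difference between the arrays described as ciclopirox 8 h and the vehicle controls known. All 5 passed the detection filter used for testing, which kept 16216 probes, and all 5 probe names were paired with the same gene symbols in the platform annotation.

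Cells were kept in medium with 5% serum and received a drug at the concentration that inhibits by 75%, which the labels say had been measured at 72 h, or the solvent DMSO. Ciclopirox is an antifungal that binds iron, and crizotinib inhibits receptor tyrosine kinases including MET and ALK. Ciclopirox had 3 arrays at 8 h and 2 at 24 h, crizotinib likewise had 3 and 2, and there were 2 DMSO controls whose titles give no time. Both times of each drug were therefore set against the same 2 controls. Each array received 300 ng of total RNA in the labelling reaction. Whether replicates are separate cultures is not stated, so a p-value here reflects array-to-array spread that could be technical. All 12 arrays sat on 1 BeadChip with the groups in consecutive positions, so group and position cannot be told apart.

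The integrated stress response joins several stress-sensing kinases that phosphorylate the translation initiation factor eIF2. Most translation falls while the transcription factor ATF4 is translated more, and ATF4 then raises genes of amino acid supply, of redox balance and of stress signalling. GDF15 encodes a secreted growth and differentiation factor that circulates as a signal of cell stress. DDIT3 encodes CHOP and ATF3 a further transcription factor, both of the basic leucine zipper class. TRIB3 encodes a pseudokinase that can restrain ATF4 and AKT signalling. ASNS encodes asparagine synthetase, which makes asparagine from aspartate and glutamine.

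The element through which ATF4 reaches many of its targets is a composite of a C/EBP site and an ATF site. The promoters of ASNS and ATF3 are printed because each holds 1 match to the letters TGATGNAA, searched on both strands in RefSeq promoters of GRCh38.p14. Each runs 5′ to 3′ on the gene's strand from 250 bases before the annotated start, and capitals mark the match. The ASNS window is chr7:97872359-97872658 on the minus strand and the ATF3 window is chr1:212565157-212565456 on the plus strand.
ASNS: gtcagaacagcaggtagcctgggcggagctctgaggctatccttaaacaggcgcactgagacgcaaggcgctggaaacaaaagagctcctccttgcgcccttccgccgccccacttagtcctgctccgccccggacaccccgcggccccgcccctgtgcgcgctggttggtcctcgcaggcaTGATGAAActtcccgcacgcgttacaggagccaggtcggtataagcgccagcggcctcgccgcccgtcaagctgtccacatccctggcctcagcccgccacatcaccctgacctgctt
ATF3: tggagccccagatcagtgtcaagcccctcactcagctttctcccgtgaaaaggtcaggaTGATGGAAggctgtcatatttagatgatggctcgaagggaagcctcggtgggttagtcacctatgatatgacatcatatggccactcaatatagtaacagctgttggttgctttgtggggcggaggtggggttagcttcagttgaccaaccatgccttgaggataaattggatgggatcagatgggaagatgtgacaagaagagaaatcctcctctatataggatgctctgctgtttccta
The ASNS match began 68 bases before the start, and the one in ATF3 191 bases before. In ASNS this stretch is known as a nutrient-sensing response element. The GDF15, DDIT3 and TRIB3 windows held no TGATGNAA, which says only that these letters were not in those 300 bases. Of all 27305 RefSeq promoters, 3.67% held the letters, against 10 of 43 (23.3%) for the other pathway genes described later. The palindrome TGACGTCA, a cAMP response element, was in 0 of 5 member promoters and in 1.98% of all promoters. The pentamer CCAAT was in 3 of 5 member promoters and in 35.7% of all promoters. These matches are descriptions of sequence, and no binding was measured.

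The tables deposited for these arrays link arrays to samples in conflicting ways. A table of non-normalized intensities names its columns by chip position, and each sample's description names such a position. The table of normalized intensities names its columns by sample record. Over 12599 probes detected on all arrays, each normalized column correlated with exactly 1 non-normalized array at 0.940 to 0.976, and with the next best at no more than 0.672. For 10 of 12 samples that array was not the one in the description, and for 7 of 12 it was described under another group. With the normalized table's labels, 12 of 12 arrays were closest to an array of their own group. With the descriptions, 6 of 12 were. The mean correlation within groups was 0.47 by the normalized table and 0.20 by the descriptions, over 9 pairs each, and between groups it was −0.16 and −0.12 over 57 pairs. No source used here says which link is right. The values below follow the normalized table, and the same members under the descriptions are given after them.

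**Figure D1:**
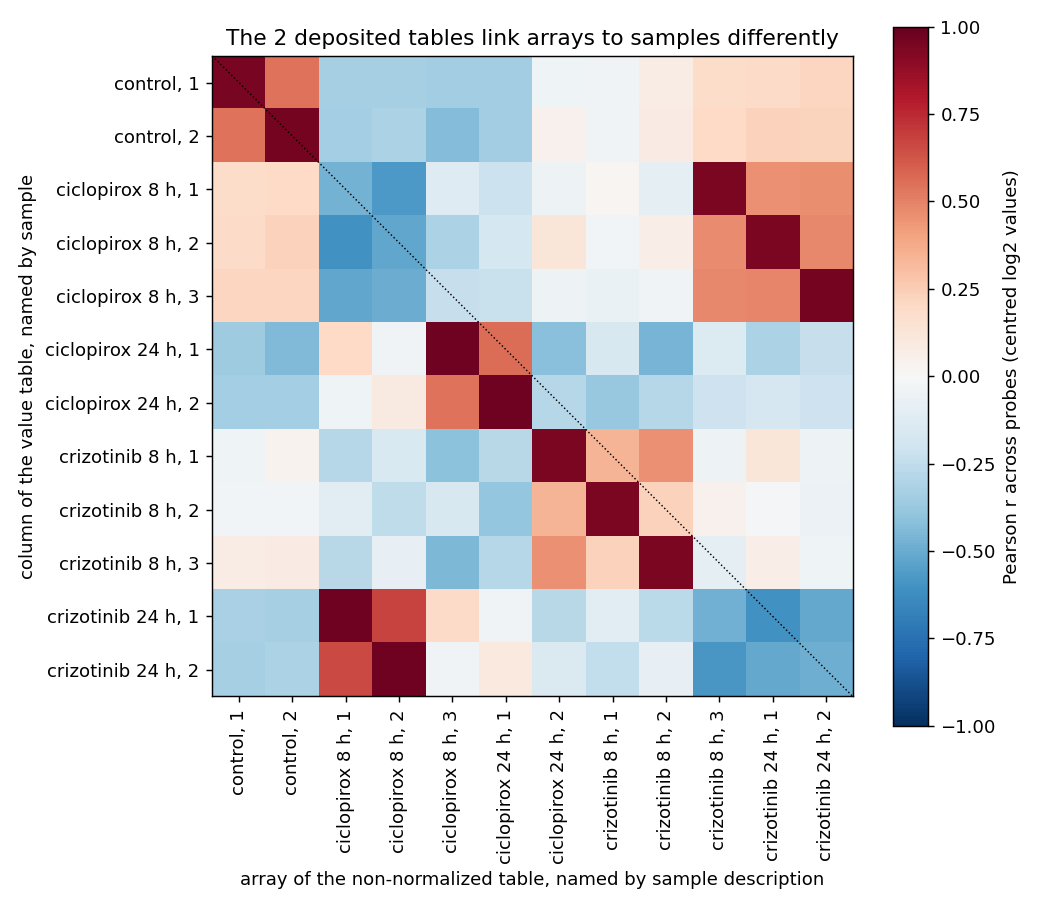
Correlation of every normalized column (rows, by sample) with every non-normalized array (columns, by the sample whose description names it), over 12599 probes, each probe centred on its mean. One cell stands out in each row at 0.940 or above, and for 10 of the 12 samples it lies off the diagonal.

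The conflict bears on how the members were chosen. By the normalized table, the 3 arrays described as ciclopirox 8 h were both crizotinib 24 h arrays and ciclopirox 24 h replicate 1. The members' 24 h levels against the controls are therefore given as a description with no p-value, as are the changes from 8 h to 24 h. With these labels, counts of members past the threshold in those comparisons are printed once beside the share of all probes and support nothing. The differences between the drugs at 8 h and those between 8 h and control carry a test. The first used no array on which the members were selected, and the second share the 2 controls. The difference between the drugs at 24 h uses the selected arrays, so it too is given as a description. Levels are normalized intensities and differences are on the log2 scale of those intensities. RNA came from whole cultures, so fewer cells with a transcript and less of it per cell cannot be told apart.

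GDF15, the secreted factor, was near the detection limit in the controls and high at 24 h of either drug. Its intensity was 28.4 and 38.2 in the controls, 37.0, 32.7 and 27.7 after ciclopirox for 8 h, and 60.9, 56.1 and 46.7 after crizotinib for 8 h. At 24 h it was 771 and 802 with ciclopirox and 467 and 455 with crizotinib. All 4 arrays of 24 h lay above all 8 others, and the 3 crizotinib 8 h arrays lay above the controls and above ciclopirox 8 h. The detection p-value reached 0.01 or more on control replicate 1 (0.0247) and on ciclopirox 8 h replicate 3 (0.0299). GDF15 was thus above background on 1 of 2 controls and 2 of 3 ciclopirox 8 h arrays, and these low values are uncertain.

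The mean log2 level of GDF15 was 5.04 ± 0.30 (SD, n = 2) in controls, 9.62 ± 0.04 (SD, n = 2) with ciclopirox at 24 h and 8.85 ± 0.03 (SD, n = 2) with crizotinib at 24 h. Its difference from control at 24 h was 4.58 (SE 0.18) under ciclopirox and 3.81 (SE 0.18) under crizotinib. From 8 h to 24 h it differed by 4.61 (SE 0.16) under ciclopirox and 3.09 (SE 0.16) under crizotinib. No other member differed from control as much at 24 h of either drug.

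DDIT3, which encodes CHOP, showed a similar order of groups with smaller differences. Its intensity was 238 and 227 in the controls, 227, 253 and 233 after ciclopirox for 8 h, and 299, 281 and 287 after crizotinib for 8 h. At 24 h it was 1287 and 1164 with ciclopirox and 530 and 502 with crizotinib. The ciclopirox 8 h arrays overlapped the controls, and the crizotinib 8 h arrays lay above both. DDIT3 differed from control at 24 h by 2.40 (SE 0.10) under ciclopirox and by 1.15 (SE 0.10) under crizotinib.

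ATF3 was high at 24 h in the same arrays, but its order at 8 h was turned. Its intensity was 133 and 138 in the controls, 175, 200 and 187 after ciclopirox for 8 h, and 161, 147 and 130 after crizotinib for 8 h. At 24 h it was 912 and 808 with ciclopirox and 339 and 326 with crizotinib. Every ciclopirox 8 h array lay above the controls, and the crizotinib 8 h arrays overlapped them. The difference from control at 24 h was 2.66 (SE 0.12) under ciclopirox and 1.29 (SE 0.12) under crizotinib. The other ATF3 probes, ILMN_1661109 and ILMN_1791346, were above background on 0 of 12 arrays, so ATF3 rests on a single probe.

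TRIB3, the pseudokinase, was abundant in every group and stood out with ciclopirox alone at 24 h. Its intensity was 1462 and 1445 in the controls, 2004, 2067 and 2138 after ciclopirox for 8 h, and 1945, 1681 and 1756 after crizotinib for 8 h. At 24 h it was 4550 and 5230 with ciclopirox but 1532 and 1547 with crizotinib. Crizotinib at 24 h lay just above the controls and below every 8 h array of either drug. TRIB3 differed from control at 24 h by 1.75 (SE 0.11) under ciclopirox and by 0.08 (SE 0.11) under crizotinib.

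ASNS, asparagine synthetase, stood above control with ciclopirox and below it with crizotinib at 24 h. Its intensity was 4044 and 4062 in the controls, 5418, 4852 and 5356 after ciclopirox for 8 h, and 4050, 3607 and 3441 after crizotinib for 8 h. At 24 h it was 14102 and 12972 with ciclopirox and 3030 and 2966 with crizotinib. The crizotinib 24 h arrays were the lowest of the 12 and the ciclopirox 24 h arrays the highest. The difference from control at 24 h was 1.74 (SE 0.11) under ciclopirox and −0.44 (SE 0.11) under crizotinib. A further ASNS probe, ILMN_2398107, gave 1.81 (SE 0.11) and −0.47 (SE 0.11) for these differences.

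**Figure D2:**
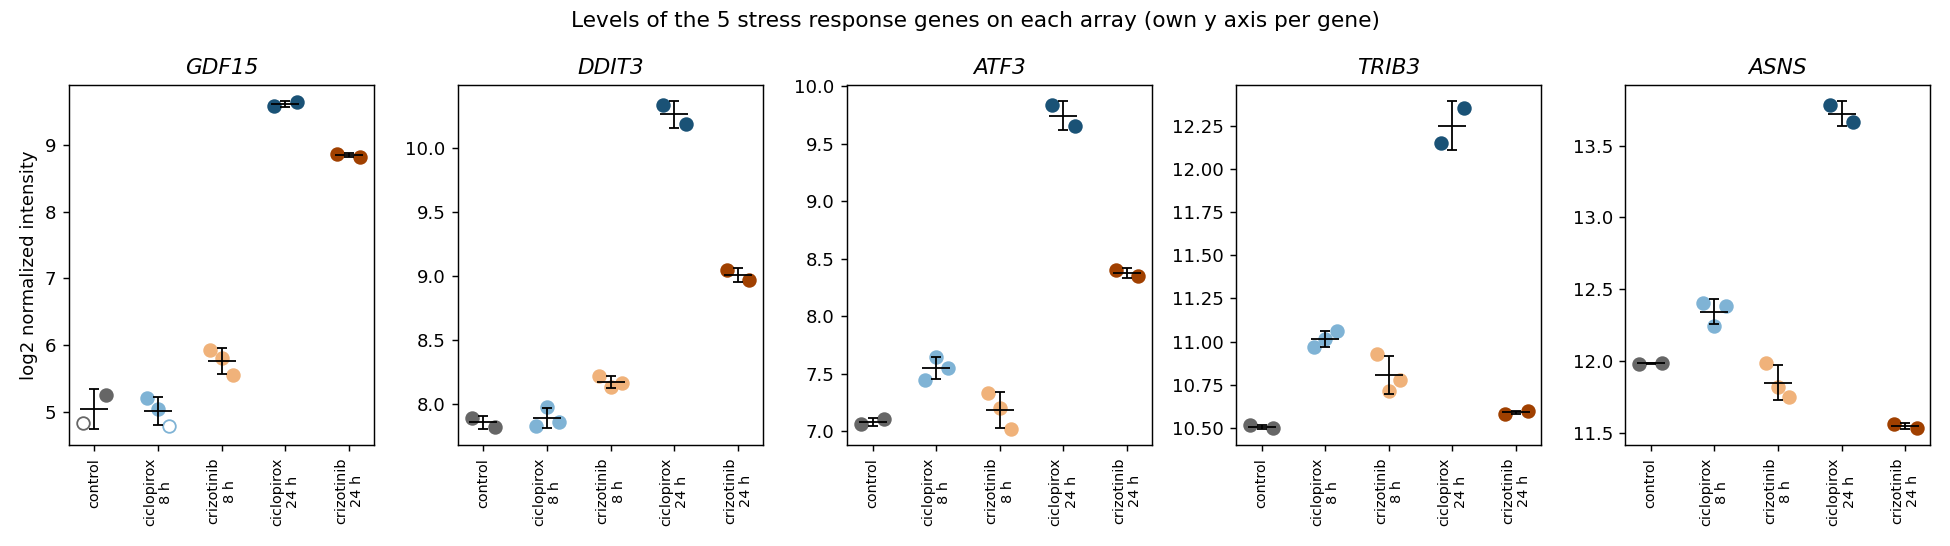
Normalized intensity (log2 axis) of the 5 member probes on each of the 12 arrays, by group under the normalized table's labels. Filled points are above background (detection p below 0.01) and open points are not. The ciclopirox 24 h arrays are the highest for all 5 genes, while crizotinib at 24 h is high for GDF15, DDIT3 and ATF3 and near or below control for TRIB3 and ASNS.

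As a description, 5 of 5 members lay past an adjusted p of 0.05 in limma above control at 24 h of ciclopirox, where 6.57% of all tested probes were higher and 7.04% lower. Under crizotinib at 24 h, 3 members lay past it above control and 1, ASNS, below, where 9.11% of probes were higher and 9.08% lower. ASNS fell short of it there when dim probes were not filtered out, or when only the compared groups were fitted. From 8 h to 24 h, 5 members lay past it upward under ciclopirox (9.17% of probes higher and 7% lower) and 3 under crizotinib (9.99% higher and 8.68% lower). The members were chosen on arrays of these groups, so these counts restate the choice and nothing is read from them.

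At 8 h, before the large levels, no member passed the test against control. Of all probes, 0.315% were higher and 0.241% lower at 8 h of ciclopirox, and 0.796% and 0.648% at 8 h of crizotinib. At an unadjusted p below 0.05 the numbers were 2034 and 2381 of 16216 probes. Under ciclopirox the differences were 0.51 (SE 0.10) for TRIB3, 0.46 (SE 0.11) for ATF3 and 0.36 (SE 0.10) for ASNS, with adjusted p = 0.0594, 0.107 and 0.166 in limma. Those of DDIT3 (0.03, SE 0.09) and GDF15 (−0.03, SE 0.16) lay within their error. Under crizotinib GDF15 differed by 0.72 (SE 0.16, adjusted p = 0.0629 in limma) and DDIT3 by 0.31 (SE 0.09, adjusted p = 0.148). TRIB3 there was 0.30 (SE 0.10), ATF3 0.10 (SE 0.11) and ASNS −0.14 (SE 0.10).

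These 8 h calls lay close to the threshold. Starting from the non-normalized intensities of the matched arrays with limma's neqc, GDF15 under crizotinib passed with 0.83 (adjusted p = 0.0261) and TRIB3 under ciclopirox with 0.52 (adjusted p = 0.0484). The 95% interval of the difference at 8 h of ciclopirox ran from −0.39 to 0.33 for GDF15 and from −0.17 to 0.24 for DDIT3.

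Set against each other at 8 h, the drugs differed in which members were higher. GDF15 was lower with ciclopirox than with crizotinib by 0.75 on the log2 scale (−0.75, SE 0.15, adjusted p = 0.0192 in limma). ASNS was higher with ciclopirox by 0.50 (SE 0.09, adjusted p = 0.0147), and its further probe by 0.49 (SE 0.09, adjusted p = 0.0114). ATF3 (0.36, SE 0.10, adjusted p = 0.0846), TRIB3 (0.21, SE 0.09, adjusted p = 0.248) and DDIT3 (−0.28, SE 0.08, adjusted p = 0.0983) did not pass. ATF3 did pass from the non-normalized intensities of the matched arrays, with adjusted p = 0.0233 under neqc, 0.0224 with a floor of 16 and 0.0481 with median centring. Of all probes, 1.39% were higher with ciclopirox and 2.41% lower. The 2 calls were not firm: that of GDF15 was lost without ciclopirox 8 h replicate 2 or 3 or crizotinib 8 h replicate 1 or 2 (adjusted p up to 0.0787). The ASNS call was lost without replicate 1 or 3 of ciclopirox or replicate 2 or 3 of crizotinib (adjusted p up to 0.0620).

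At 24 h every member was higher with ciclopirox than with crizotinib, a description since the members were selected on arrays of these groups. The log2 difference was 2.17 (SE 0.11) for ASNS, 1.66 (SE 0.11) for TRIB3, 1.37 (SE 0.12) for ATF3 and 1.25 (SE 0.10) for DDIT3. In linear terms these were 4.51-fold, 3.17-fold, 2.58-fold and 2.37-fold. GDF15 differed least, by 0.77 (SE 0.18, 1.71-fold). The groups of 2 arrays did not overlap for any of the 5, and 5 of 5 were called higher where 6.46% of probes were higher and 7.44% lower. Leaving out single arrays put the GDF15 difference between 0.74 and 0.80. GDF15 fell short of that threshold with a floor of 16 and with array weights.

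**Figure D3:**
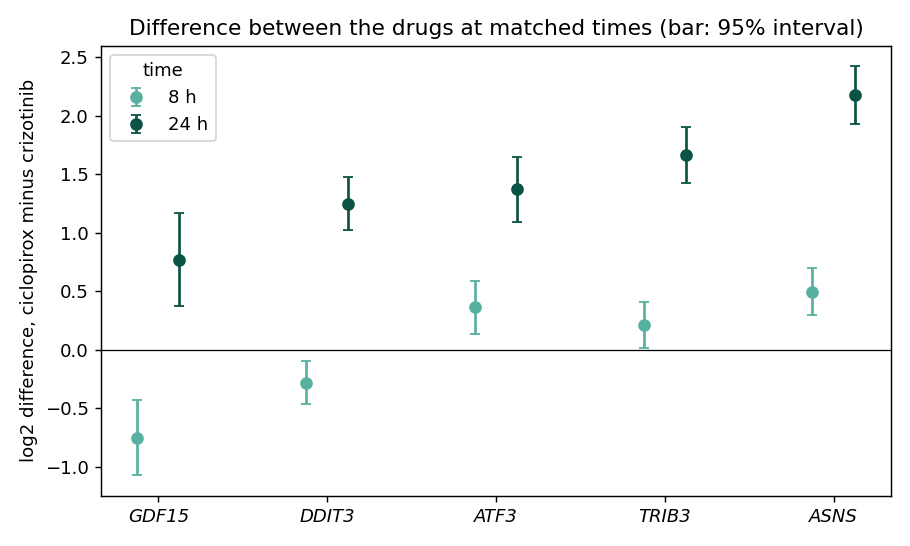
Log2 difference between ciclopirox and crizotinib at 8 h and at 24 h for the 5 members, with the 95% interval of the fit as bars. At 8 h the differences run from −0.75 for GDF15 to 0.50 for ASNS. At 24 h, a description since the members were selected on some of these arrays, all 5 lie above 0. They rise from 0.77 for GDF15 to 2.17 for ASNS.

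As a description, since the members were selected on some of the 24 h arrays, the change from 8 h to 24 h was larger under ciclopirox than under crizotinib for each member. The excess was 1.68 (SE 0.14) for ASNS, 1.53 (SE 0.13) for DDIT3, 1.52 (SE 0.23) for GDF15, 1.46 (SE 0.14) for TRIB3 and 1.01 (SE 0.16) for ATF3. Over all probes, such an excess passed limma's test upward for 2.75% and downward for 2.45%. For GDF15 the excess holds both its low start under ciclopirox at 8 h and its higher level at 24 h.

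Over the 12 arrays all pairs of members were positively correlated (Pearson), most closely within 2 subsets. GDF15 correlated with DDIT3 at 0.95 and with ATF3 at 0.91, and DDIT3 with ATF3 at 0.97. TRIB3 correlated with ASNS at 0.96, while GDF15 correlated with TRIB3 at 0.58 and with ASNS at 0.44. ATF3 and DDIT3 lay between, with ATF3 at 0.82 to TRIB3 and 0.75 to ASNS, and DDIT3 at 0.78 and 0.68. Rank correlations were lower, at 0.87 for GDF15 with DDIT3, 0.60 for GDF15 with ATF3, 0.57 for ATF3 with TRIB3 and −0.01 for GDF15 with ASNS. These describe arrays that fall into groups and carry no test.

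Among the 16211 other tested probes, those most like GDF15 over the 12 arrays were WDR45 (ILMN_1756146, r = 0.99) and RIOK3 (ILMN_2404135, r = 0.98). The mean log2 level of WDR45 was 8.36 in controls, 8.30 and 8.56 at 8 h of ciclopirox and crizotinib, and 9.23 and 9.05 at 24 h. The probes most opposed were MCM6 (ILMN_1798654) and PREP (ILMN_1751887), both at r = −0.98. MCM6, a subunit of the replicative helicase, had a mean level of 11.79 in controls, 11.81 and 11.71 at 8 h, and 11.09 and 11.18 at 24 h. In all, 178 probes exceeded r = 0.9 and 183 were below −0.9, so this likeness is shared by many transcripts.

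The wider pathway was read from 50 further genes, of which 44 had a tested probe. That list was drawn up with earlier results of these data known. The 24 h groups hold the arrays on which the members were selected. Counts of list genes at 24 h are therefore a description, and they are not independent of the members' choice. At 24 h of ciclopirox 28 of 44 were higher than control at an adjusted p below 0.05 and 0 were lower, against 6.57% and 7.04% of all probes. The median difference was 0.67, against −0.03 over all probes. CHAC1 and NUPR1 met the detection filter only through the ciclopirox 24 h arrays, where they had to be high. Without them 26 of 42 were higher, with a median of 0.65. All 8 tested genes listed under serine, one-carbon and amino acid synthesis were higher. Among them were CTH, which makes cysteine (2.28, SE 0.23), PCK2 (1.74, SE 0.11) and PSAT1 of serine synthesis (1.61, SE 0.17). CTH read 100.001 and 67.8 in controls and 430 and 369 at 24 h of ciclopirox. ALDH1L2, also among the 8, was near the detection limit and above background on 1 of 2 controls. It read 39.5 and 35.1 in controls and 56.3 and 50.1 at 24 h of ciclopirox.

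Of the stress effectors, 5 of 5 were higher, CHAC1 included, with SESN2, a regulator of the mTOR pathway, at 2.74 (SE 0.22). SESN2 was above background on 1 of 2 controls, with intensities of 39.6 and 33.7 there and 247 and 240 at 24 h of ciclopirox. CHAC1, which degrades glutathione, was at least 2.96-fold higher. That is a bound, since its probe was not above background on any array outside this group: the mean log2 level was 4.27 in controls and 6.01 at 24 h, and the bound sets the latter against each control array's lowest detected signal where that was higher. NUPR1, above background on 1 array outside this group, is bounded in the same way at 1.77-fold.

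Of the transcription factors, 4 of 5 were higher: CEBPB (1.28, SE 0.11), CEBPG (1.04, SE 0.14), NUPR1 with the limit just given, and ATF4 (0.72, SE 0.13). Of the 3 ATF4 probes tested, 1 passed. ATF5 did not pass, with −0.46 (adjusted p = 0.0516 in limma). Of 6 amino acid transporters 4 were higher, with differences from 0.48 for SLC7A1 to 0.65 for SLC38A2. Of 10 genes of tRNA charging and export 6 were higher, led by WARS1 (1.13, SE 0.12) and SARS1 (1.08, SE 0.13). Among 10 genes listed with eIF2 (its kinases, exchange factor and phosphatase, and DNAJC3), only PPP1R15A was higher (1.76, SE 0.13). It encodes GADD34, which directs the phosphatase to eIF2, and it read 1832 and 1869 in controls against 5823 and 6791.

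Crizotinib at 24 h gave another picture in the same list: 2 genes were higher and 7 lower, against 9.11% and 9.08% of all probes, with a median of −0.12 against −0.02 over all. The higher ones were PPP1R15A (0.89, SE 0.13) and DDIT4 (0.49, SE 0.12), an inhibitor of mTOR signalling. The lower ones included the glutamine transporter SLC1A5 (−1.14, SE 0.17), the methionyl tRNA synthetase MARS1 (−0.66), MTHFD2 of one-carbon metabolism (−0.58) and CEBPG (−0.55). SLC1A5 read 769 and 708 in controls and 286 and 390 at 24 h of crizotinib. The number called fell from 9 to 3 without control replicate 1 and to 4 without crizotinib 24 h replicate 1.

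Set directly against crizotinib at 24 h, ciclopirox gave 33 of 44 higher and 0 lower, where 6.46% of probes were higher and 7.44% lower. The median difference was 0.81 against −0.01 over all probes, and without CHAC1 and NUPR1 the count was 31 of 42. Both counts include ALDH1L2, above background on 0 of 2 crizotinib 24 h arrays and so bounded at 1.74-fold. The tally held 6 of 6 transporters and 9 of 10 genes of tRNA charging and export. From 8 h to 24 h, 25 of 44 were higher under ciclopirox and 0 lower, against 9.17% and 7% of all probes, and 23 of 42 without CHAC1 and NUPR1. Under crizotinib 1 was higher and 10 were lower, against 9.99% and 8.68% of all probes. That last count fell from 11 to 3 without crizotinib 24 h replicate 1.

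At 8 h few of the 44 passed, as did few of all probes (0.315% higher and 0.241% lower with ciclopirox, 0.796% and 0.648% with crizotinib). Under ciclopirox DDIT4 (0.93, SE 0.11, adjusted p = 0.00474 in limma) and the lipoprotein receptor VLDLR (1.01, SE 0.16, adjusted p = 0.0258) were higher than control. Both are also known as targets of the hypoxia-inducible factors. DDIT4 read 1580 and 1536 in controls, 3045, 2858 and 3002 with ciclopirox, and 1596, 1320 and 1564 with crizotinib. Under crizotinib PPP1R15A alone passed (0.57, SE 0.12, adjusted p = 0.0490). Without either control the count was 0 for each drug, and for crizotinib it was 0 on leaving out any array but ciclopirox 8 h replicate 2. Between the drugs at 8 h, 6 were higher with ciclopirox, ATF4 (0.55), PCK2 (0.52), MTHFD2, EIF2B3, DDIT4 and VLDLR, and 0 were lower, against 1.39% and 2.41% of all probes. Of the tested probes of ATF4 1 of 3 passed here, and of PCK2 1 of 2. Leaving out replicate 1 of ciclopirox left 2 of these, and leaving out its replicate 3 or replicate 1 or 3 of crizotinib left 3 called.

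**Figure D4:**
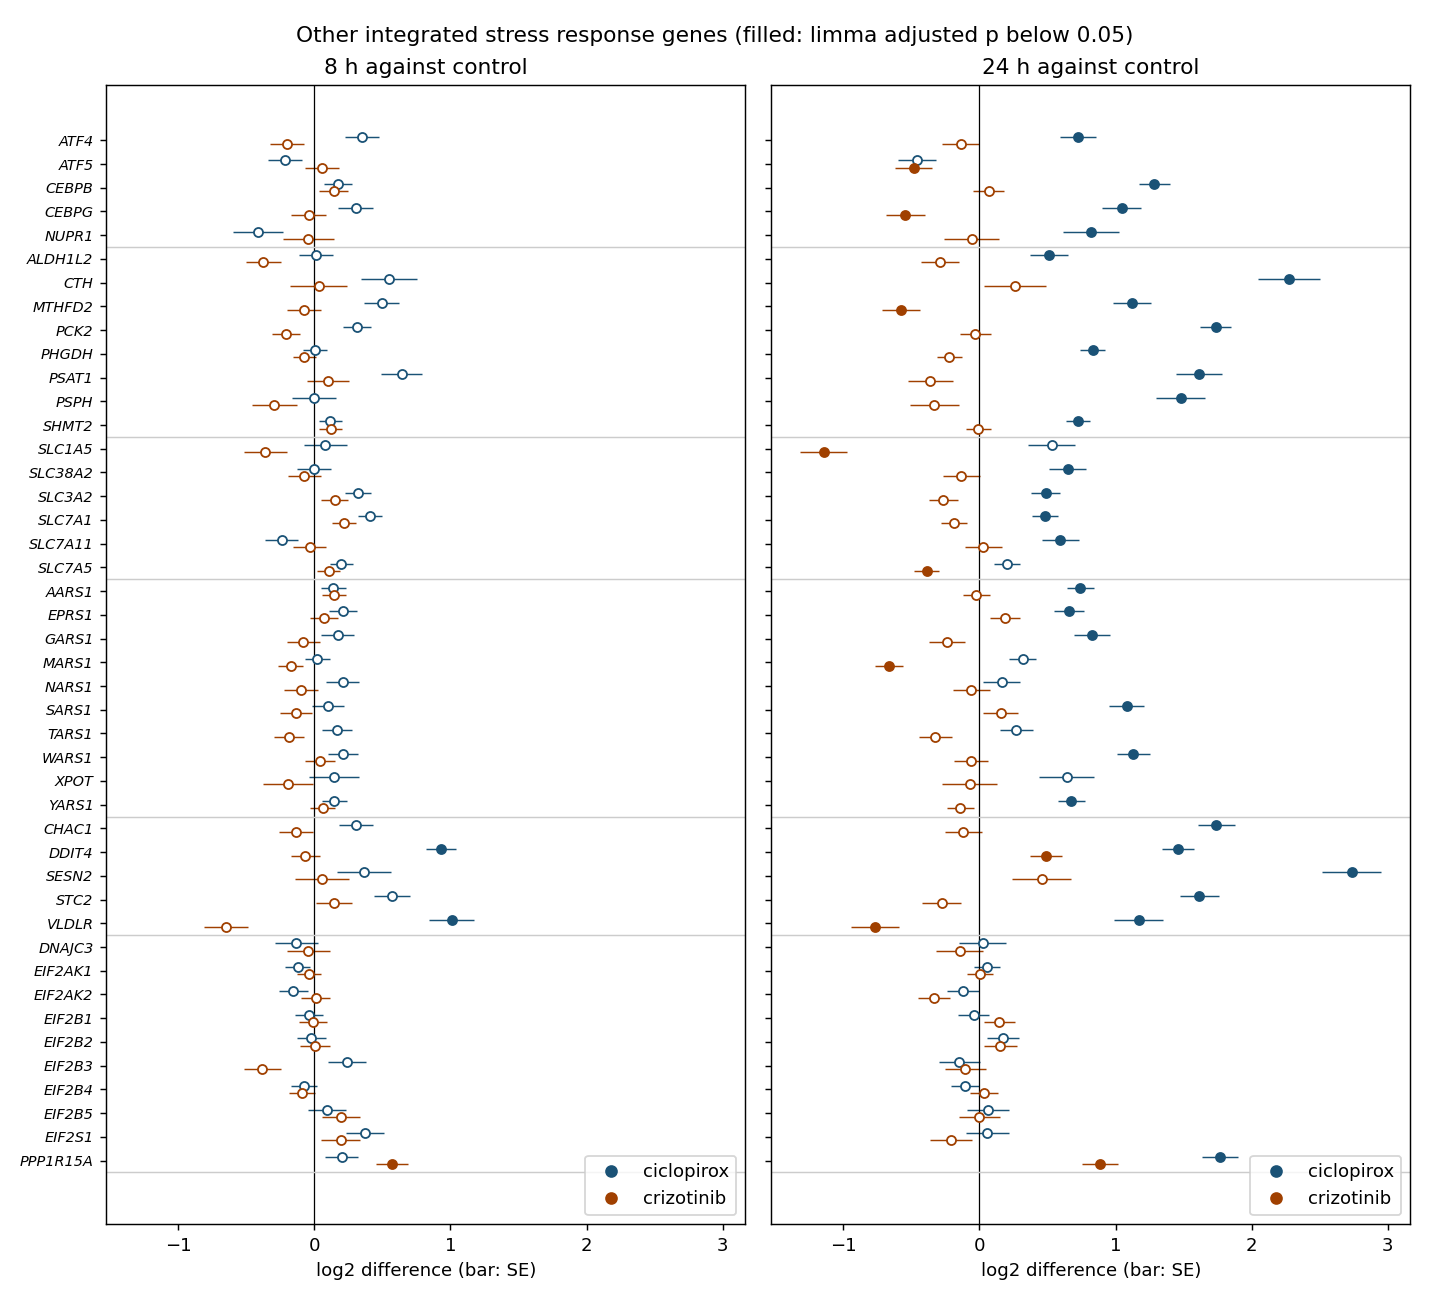
Log2 difference from control for the tested genes of the pathway list, under ciclopirox and under crizotinib, grouped by role. The left panel is 8 h and the right panel 24 h, with the SE as bars. Filled points passed an adjusted p of 0.05. At 24 h, 28 of 44 lie above 0 and passed under ciclopirox, and under crizotinib 2 passed above 0 and 7 below.

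With arrays assigned by the sample descriptions, the members read otherwise. Using neqc-normalized log2 values, GDF15 was 5.25 ± 0.23 (SD, n = 2) in controls, 9.15 ± 0.43 (SD, n = 3) in arrays described as ciclopirox 8 h and 5.84 ± 0.36 (SD, n = 3) in those described as crizotinib 8 h. The arrays described as ciclopirox 24 h gave 6.19 and 9.65, the widest spread of any group. The difference of ciclopirox 8 h from control was then 3.90 for GDF15, 1.57 for DDIT3, 1.63 for ATF3, 0.60 for TRIB3 and 0.36 for ASNS, which is the contrast on which the members were selected. GDF15 alone of the 5 was called there and between the drugs at 8 h, and 0 members passed in the other 6 comparisons. Of the 18285 probes tested in this fit, 519 and 522 were called in those 2 comparisons. Both use the arrays on which the members were selected, so nothing is read from the calls of GDF15. The same link gave ASNS an SD of 1.31 in ciclopirox 8 h, where the normalized table's labels gave intensities of 4852 to 5418.

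As a check of the cell line, SOX10, a melanocyte lineage factor, was above background on 12 of 12 arrays (intensity 2030 to 3143) and MITF on 11. SOX10 was lower at 8 h, at 2097 to 2292 with ciclopirox and 2030 to 2233 with crizotinib. It was at 2750 to 3027 in controls, and at 24 h at 2823 to 3143 with ciclopirox and 3055 to 3096 with crizotinib. The pigment genes PMEL, MLANA, TYR and TYRP1 and S100B were above background on 0. Of markers of other cell types, the fibroblast gene LUM was detected on 10 arrays, CD68, KRT8 and KRT18 on all 12 and EPCAM on 1. PTPRC, CD3E, CDH1, the 3 endothelial genes and 4 of 5 fibroblast genes were at 0 arrays. Some of these levels moved with the 24 h groups in which the members were high. CD68, a lysosomal protein used as a macrophage marker, ranged from 284 to 328 over the controls and the 8 h arrays, from 364 to 465 at 24 h of ciclopirox and from 634 to 685 at 24 h of crizotinib. KRT8 ranged from 75.2 to 86.0, 101 to 157 and 145 to 191 in the same order, while LUM was at 22.1 to 24.8 with ciclopirox and 56.6 to 65.5 with crizotinib at 24 h. Their part in the members' results was not tested, and the leukocyte marker PTPRC and the epithelial marker CDH1 were not above background on any array. Between 15561 and 17106 probes were detected per array, and the number of arrays limits the precision.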

How the data were processed

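Per the file headers, the authors deposited a table of non-normalized intensity per probe, with its detection p-value (47230 probes), and a second table of 38223 normalized intensity values. The submitters' processing notes name GenomeStudio, with no version. Array means of the first table were 346 to 398 and 27.1% to 30.2% of its values were below 0. Each column of the second was compared with its array: the scale is linear (medians 25.0 to 26.4, all values above 0) and not centred per gene, and its background treatment and normalization method are not given in the sources used here. No column of per-sample values was unused (0).

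The members and lists were chosen with earlier results of these data known. The design as written used limma's neqc on the non-normalized table, linked by the sample descriptions. Once the tables were seen to disagree, log2 of the normalized table was used instead, a choice made after seeing the data, and the planned analysis is given beside it. The filter asked for 2 or more arrays with detection p under 0.01 and left 16216 probes. For the neqc fits it left 18285 probes of the non-normalized table. Limma 3.58.1 in R 4.3.3 fitted 1 mean per group to 12 arrays (7 residual degrees of freedom), with Benjamini-Hochberg adjustment over all 16216 probes and a threshold of 0.05. Changes of 1.5, 2 and 4 times were set in 200 of 16216 probes. On such data the comparison of ciclopirox 8 h with control recovered 40.3%, 80.6% and 100%, with 6 false among 153 calls. For ciclopirox 24 h against crizotinib 24 h this was 28.4%, 67.2% and 98.5%, with 6 false among 135. In the real data 2254 probes were called in the latter, so these shares need not hold for it.

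The platform annotation paired 27004 of 38223 probes with 1 gene, 4 with several and 11215 with none. It can be old, and symbols were brought to RefSeq. For genes with several probes, the tested one with the highest mean log2 level stood for the gene. Named genes are the members, the 2 probes most and least correlated with GDF15, and the 50-gene list, and those singled out from the list were picked with their values seen. Of that list EIF2AK3, EIF2AK4, PPP1R15B, FGF21, CBS and CARS1 were not tested. Replicate numbers were not taken to pair the samples: same-numbered deviations of the 8 h groups, the only ones with 3 shared numbers, correlated at -0.04, -0.09 and 0.03. Over all pairs of groups they ran from -0.25 to 0.36, the highest between the drugs at 24 h.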

Additional observations from a re-analysis of the deposited data

Results flagged for a closer look

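Each of the 5 members was flagged because its change from 8 h to 24 h differed between the drugs. The change under ciclopirox exceeded that under crizotinib by 1.52 on the log2 scale for GDF15, 1.53 for DDIT3, 1.01 for ATF3, 1.46 for TRIB3 and 1.68 for ASNS. The members were selected on some of these 24 h arrays, so the values are a description and no p-value is given for them. For TRIB3 and ASNS both 24 h arrays lay above all 8 h arrays under ciclopirox and below all of them under crizotinib. Groups of 2 or 3 arrays were too small to look for single outlying arrays.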

How the results depend on the processing

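The link of arrays to samples changed more than any processing setting. With neqc and the sample descriptions, members called were 1 for ciclopirox 8 h against control, 1 between the drugs at 8 h and 0 in the other 6 comparisons, and pathway genes called were 0 in all 8. Of 18285 probes, those called were 519 and 522 in those 2 comparisons, 1 for ciclopirox 24 h against control and 0 in the other 5. Differences that changed sign there were GDF15 at 3.90 and ASNS at 0.0404 and 0.364 against control (ciclopirox 8 h, crizotinib 8 h and crizotinib 24 h), and GDF15 at 3.31 and DDIT3 at 1.35 between the drugs at 8 h. From 8 h to 24 h they were GDF15 at -1.23, DDIT3 at -0.26 and ATF3 at -0.40 under ciclopirox, and GDF15 at -0.57, DDIT3 at -0.16, TRIB3 at 0.21 and ASNS at 0.32 under crizotinib. With the normalized table's labels kept, all signs of the 24 h differences from control and of the differences between the drugs were the same under each other setting tried.

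Near 0, GDF15 at 8 h of ciclopirox against control turned from -0.03 to 0.0878 with neqc on matched arrays, 0.15 with a floor of 16, 0.0153 with median centring and 0.0785 with the replicate number as a block. DDIT3 there turned to -0.0698, and ATF3 at 8 h of crizotinib to -0.14, with median centring. Leaving out single arrays took GDF15 there to between -0.24 and 0.18, and DDIT3 to between -0.0122 and 0.0679 (-0.0032 without control replicate 2, -0.0122 without ciclopirox 8 h replicate 2, and GDF15 to 0.0799 without ciclopirox 8 h replicate 3).

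Members called at 8 h of ciclopirox went from 0 to 1 with matched neqc, with detection on all 12 arrays and with array weights. At 8 h of crizotinib they went from 0 to 1 with matched neqc, a floor of 16, median centring, array weights and the replicate block. Between the drugs at 8 h they went from 2 to 0 with no filter on dim probes or with only the groups compared, to 1 with detection on all 12 arrays, where GDF15 is not tested, and to 3, adding ATF3, with matched neqc, a floor of 16 or median centring. At 24 h, a description only, GDF15 alone fell short of the threshold with a floor of 16 and with array weights. It was not tested with detection on all 12 arrays. Pathway genes called for ciclopirox and crizotinib at 8 h (2 and 1) became 5 and 2 with array weights, 1 and 0 with a floor of 16, median centring, no filter or the block, and 0 and 0 with only the groups compared. Matched neqc gave 0 for crizotinib. Between the drugs at 8 h (6) they became 10 with weights and 2 with no filter. For crizotinib at 24 h (9 against control and 11 against 8 h) they became 4 and 4 with no filter, 4 and 5 with only the groups compared, and 7 for the latter with the block.

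Probes called for ciclopirox 8 h against control (90) became 268 with weights, 142 with detection on all arrays, 22 with no filter, 4 with only the groups compared and 36 with the block. For crizotinib 8 h (234) these were 434 with weights, 62 with no filter, 43 with only the groups compared and 118 with the block. With no filter the other comparisons gave 999 (ciclopirox 24 h), 1610 (crizotinib 24 h), 239 and 1155 between the drugs at 8 h and 24 h, and 1167 and 1709 from 8 h to 24 h. With only the groups compared they gave 875, 1547, 338, 726, 1407 and 1930, and weights gave 1378 between the drugs at 24 h.

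Leaving out single arrays, members called between the drugs at 8 h ranged from 0 to 2. Member counts are not given for comparisons on the arrays that chose the members, or where a group was left with 1 array. Against control, the ranges below run in the order ciclopirox 8 h and 24 h, then crizotinib 8 h and 24 h. Between the drugs 8 h comes first, and from 8 h to 24 h ciclopirox does. Pathway genes ranged from 0 to 2, 21 to 30, 0 to 1 and 3 to 9 against control, 2 to 6 and 28 to 33 between the drugs, and 19 to 25 and 3 to 10 from 8 h to 24 h. Probes ranged from 4 to 96, 915 to 2270, 34 to 217 and 1369 to 2980 against control, 281 to 564 and 1258 to 2194 between the drugs, and 1182 to 2676 and 1546 to 3086 from 8 h to 24 h. The cause of these moves was not tested. The replicate number as a block, which the labels do not say marks a shared batch, moved GDF15 at 8 h of crizotinib past the threshold (0.83, adjusted p = 0.0483 in limma), and otherwise ended no member's call.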
